A study of Mus musculus with 20 samples.

Results

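The respiratory chain and ATP synthase subunits described here are the gene products, encoded in the nucleus, that build the machinery of oxidative phosphorylation. They were taken by symbol: every array probe set with a single gene symbol that starts with Nduf (complex I), Sdh followed by a to d (complex II), Uqcr (complex III), Cox4 to Cox8 (complex IV) or Atp5 (ATP synthase). This gave 100 probe sets for 73 genes, out of 10833 single-symbol probe sets for 8251 genes in the series. A probe set is a group of short probes that reports the transcript of a gene. By complex there were 29 genes of complex I, 4 of complex II, 7 of complex III, 15 of complex IV and 14 of ATP synthase. The same prefixes also took in 4 assembly factors, Ndufaf1, Ndufaf4, Sdhaf1 and Sdhaf2, which help to build complexes I and II without staying in them. The rule reads symbols and no measured value.

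Adult mice of the inbred strain C57BL/10SnJ had given the skeletal muscle and the bone marrow, and the cells of each tissue had been sorted into the side population, SP, and the main population, MP. Side population cells stain weakly with a DNA-binding dye because ABC transporters pump it out, and in bone marrow this fraction is known for its blood stem cells. Main population cells retain the dye. Total RNA of muscle SP, muscle MP, marrow SP and marrow MP cells was measured on 5 arrays each, 20 in all, with no treatment or altered allele named in any group. The labels do not say whether the 5 samples of a group were separate animals or separate sorts, so a p-value here covers the spread among the 5 samples only, and that spread may be technical.

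Oxidative phosphorylation passes electrons from NADH through complex I, or from succinate through complex II, to ubiquinone, then through complex III and cytochrome c to complex IV, where oxygen is reduced. Complexes I, III and IV pump protons across the inner mitochondrial membrane, and ATP synthase uses their return to make ATP. Most subunits are the same in every tissue, but several small subunits of complex IV come as pairs of isoforms, with a general form and a form of heart and skeletal muscle or of testis. Muscle fibres are rich in this machinery, whereas quiescent blood stem cells are known to rely on it less. Many of these genes carry sites for the factors NRF1 and GABP (an ETS factor) near their start.

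Of the 73 member genes, 60 had a promoter in the RefSeq table for mouse build GRCm38, some with several start sites, which gave 65 promoters of 250 bases before and 50 bases after the start. A letter search on both strands found the NRF1-like word GCGCNTGCG in 20 of the 65 (30.8%), against 6.31% of all promoters of the table and 11.2% of those of single-symbol genes on the array. The ETS-like word CCGGAAG was found in 18 of the 65 (27.7%), against 8.86% and 14.4%. The windows of the members had a mean GC content of 58.1%, those of the array's genes 59.5% and all windows 53.8%. Matches of the 2 words can share at most 1 end base, and the NRF1-like word can match both strands of the same stretch. Of the 60 genes, 6 held both words and 29 held neither. By complex, the NRF1-like word was in 7 of 12 ATP synthase genes, 3 of 4 of complex III, 2 of 3 of complex II, 5 of 26 of complex I and 1 of 11 of complex IV.

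The promoters of 4 genes are shown because their genes gave the clearest differences between tissues or belong to an isoform pair of complex IV. Each is the 250 bases upstream of the start, 5′ to 3′ on the gene's own strand, with matches of either word in capitals. Ndufa5 lies at chr6:24527691-24527940 and Uqcr11 at chr10:80406822-80407071, both on the minus strand. Cox6a1, the general isoform, lies at chr5:115348959-115349208 and Cox6b2, the testis isoform, at chr7:4753095-4753344, also on the minus strand.
Ndufa5: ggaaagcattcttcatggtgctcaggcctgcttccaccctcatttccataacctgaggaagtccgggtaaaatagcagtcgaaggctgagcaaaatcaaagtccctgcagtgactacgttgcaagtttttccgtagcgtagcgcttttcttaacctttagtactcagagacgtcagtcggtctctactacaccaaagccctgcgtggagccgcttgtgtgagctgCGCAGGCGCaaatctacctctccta
Uqcr11: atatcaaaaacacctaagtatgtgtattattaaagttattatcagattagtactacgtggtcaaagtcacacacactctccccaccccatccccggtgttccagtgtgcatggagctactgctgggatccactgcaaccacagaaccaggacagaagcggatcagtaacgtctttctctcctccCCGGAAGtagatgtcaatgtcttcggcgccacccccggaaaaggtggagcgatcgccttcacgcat
Cox6a1: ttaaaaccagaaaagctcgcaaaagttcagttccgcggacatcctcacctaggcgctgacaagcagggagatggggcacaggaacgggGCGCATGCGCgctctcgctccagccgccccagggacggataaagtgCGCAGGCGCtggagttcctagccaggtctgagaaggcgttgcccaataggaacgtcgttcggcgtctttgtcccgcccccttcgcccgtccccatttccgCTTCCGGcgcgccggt
Cox6b2: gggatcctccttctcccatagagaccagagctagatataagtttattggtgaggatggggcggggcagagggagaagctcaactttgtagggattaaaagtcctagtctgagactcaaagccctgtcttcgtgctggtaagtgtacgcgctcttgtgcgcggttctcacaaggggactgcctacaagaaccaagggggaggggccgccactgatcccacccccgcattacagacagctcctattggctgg
The Ndufa5 stretch holds 1 NRF1-like match and the Uqcr11 stretch 1 ETS-like match. With the bases after the start counted, Uqcr11 also has 1 NRF1-like match, which the printed stretch does not hold in full. Ndufa5 has 2 promoters, of which the most upstream is shown. The Cox6a1 stretch holds 3 NRF1-like matches, counted per strand, and 1 ETS-like match, and the Cox6b2 stretch holds 0 of either. A match is a description of the letters and not of binding. Cox6a2, named further on, has no entry in the table.

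Signals were compared on the log2 scale after quantile normalization of the arrays, with signals below a floor of log2 6.71 set to it. Array medians before this step lay between 318 and 612 signal units. Probe sets above the floor on at least 5 arrays were tested, 10310 in all, and 91 of the 100 member probe sets were among them, covering all 73 genes. The other 9 were second probe sets of Ndufb2 (2 of them), Ndufa1, Ndufb7, Ndufb10, Ndufaf4, Cox5a, Cox6b2 and Cox8c. The log2 ratio of 3′ to 5′ GAPDH control probes, a sign of RNA quality, was higher on SP than on MP arrays in muscle (3.83 ± 0.61 against 2.66 ± 0.62, SD, n = 5, exact permutation p = 0.0238) and in marrow (3.72 ± 0.60 against 2.67 ± 0.72, exact permutation p = 0.0397). For beta-actin it was 2.52 ± 0.40 against 1.44 ± 0.43 in muscle (exact permutation p = 0.0159) and 2.07 ± 0.72 against 0.98 ± 0.28 in marrow (exact permutation p = 0.00794), so all 4 two-sided tests have adjusted p of 0.0397 or less. Array 1 of muscle SP had the highest GAPDH ratio, 4.79, and stood apart from its group for several members. Of the 91 tested probe sets 22 carry a letter in their names (f, s or g) that marks probes shared with related sequences or transcripts, and 9 a letter (r or i) that marks a set made under relaxed selection rules or with fewer probes. Of the 20 members that passed in marrow SP against MP, 10 were among these 22, those of Ndufa5, Sdhaf1, Cox6a1, Ndufa3, Ndufb5, Atp5g2, Atp5l and Atp5d; so were probe sets of Cox6b2, Cox6c, Ndufb2 and Uqcrb that passed between tissues.

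The members were bright and varied less between the groups than most genes. Their median level was log2 10.67, against 9.37 over all probe sets tested, and the median SD within a group was 0.357 against 0.389. The 4 group means of a member spanned a median of 0.596 on the log2 scale, against 0.915 over all. A span of at least 1, which is a doubling, was reached by 14 of the 91 members (15.4%) and by 4691 of all 10310 (45.5%). Those 14 include Ndufa5, Cox6a2, Cox6b2, Uqcr11 and Sdhaf1, which carry the largest differences below.

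In muscle, 0 member probe sets were higher and 3 lower in SP than in MP cells (adjusted p under 0.05, limma, Benjamini-Hochberg over all probe sets tested), 3.3% of the members. Of all probe sets tested 5.1% were higher and 6.64% lower. Without muscle SP 1 the split turned to 3 higher (Atp5d, Cox6b2 and Cox7a2l) and 1 lower (Ndufaf4), and without the 3 arrays of highest GAPDH ratio it was 6 higher and 3 lower. With that ratio as a covariate none of the 3 lower calls (Ndufaf4, Ndufv1 and Sdhd) was kept, and Ndufb3 (-1.18, adjusted p = 0.0167) was lower and Cox7a2l (0.81, adjusted p = 0.0275) higher instead. In marrow, 13 were higher and 7 lower in SP cells, 22% of the members, against 15.4% and 14.8% of all. This split depends on the scaling: with no further normalization it was 16 higher and 2 lower, and with the arrays scaled to a common median it was 3 higher and 18 lower. The median change of all probe sets moved from 0.02 to 0.31 and -0.08 under these scalings, and that of the members from 0.01 to 0.22 and -0.20. The split of higher and lower calls in marrow therefore depends on how the arrays are scaled, also relative to the other genes. The marrow calls of Cox6a2, Sdhaf1, Ndufa5 and 1 probe set of Atp5d were kept in all 31 alternatives. Of the called probe sets, 65% of the members and 50.9% of all were higher with quantile normalization. With median scaling these shares were 14.3% and 32.9%.

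Between tissues, 13 member probe sets were higher and 3 lower in muscle SP than in marrow SP cells (17.6%), against 17.1% higher and 21.2% lower of all. In MP cells 18 were higher and 8 lower in muscle (28.6%), against 20.9% and 25.6% of all. The splits were 11 and 7 in SP and 17 and 5 in MP cells with no further normalization, and 16 and 3 in SP and 10 and 9 in MP cells with median scaling. The median difference was 0.02 for the members and -0.11 for all probe sets in SP cells, and 0.04 and -0.14 in MP cells. With no further normalization the medians of the members and of all were -0.08 and -0.27 in SP cells and 0.06 and -0.05 in MP cells, and with median scaling 0.14 and -0.07 in SP cells and -0.08 and -0.20 in MP cells, so the sign of the members' median depends on the scaling. The change from MP to SP itself differed between the tissues for 10 members (11%), 3 with a higher and 7 with a lower value in muscle, against 8.69% and 9.85% of all, and these splits were 1 and 5 or 5 and 2 under the other scalings. Comparisons that share a group are not independent: both SP against MP and muscle against marrow use the same arrays. In sorted pools such as these, fewer cells that express a gene and less RNA per cell cannot be told apart.

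**Figure D1:**
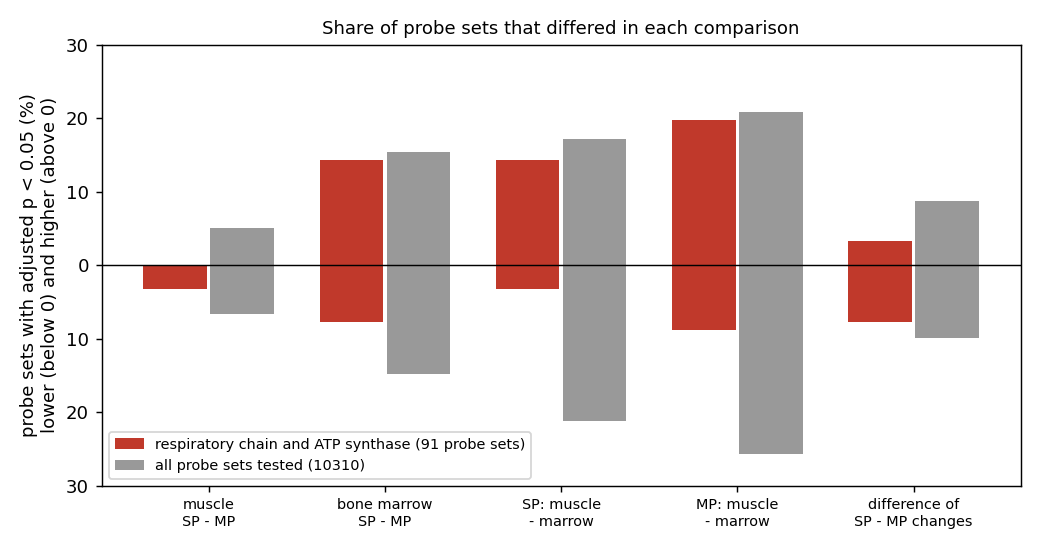
Share of probe sets with an adjusted p under 0.05 in each comparison, in percent, for the 91 respiratory chain and ATP synthase probe sets (red) and all 10310 tested (grey), higher above and lower below the zero line. In muscle SP against MP the members have 3 lower and 0 higher, and in SP and MP muscle against marrow the lower bars of the members (3 and 8 probe sets) are shorter than their higher bars (13 and 18).

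Complex I, the NADH dehydrogenase that opens the chain, was represented by 33 tested probe sets. Between tissues 6 were higher and 0 lower in muscle than in marrow SP cells (18.2%, against 38.3% of all probe sets in either direction), and 8 higher and 1 lower in MP cells (27.3% against 46.5%). In marrow 4 were higher and 3 lower in SP than in MP cells (21.2% against 30.2%), and in muscle 1 was lower (3.03% against 11.7%). The median tissue difference of the complex was 0.142 in SP and 0.127 in MP cells.

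Ndufa5, an accessory subunit of the arm that reaches into the matrix, had the largest range of any member, 2.29, by a probe set that may also bind related sequences. Its log2 signal was 13.59, 13.33, 13.31, 13.43 and 13.38 on the muscle SP arrays and 13.52, 13.55, 13.45, 13.63 and 13.28 on the muscle MP arrays. Marrow SP arrays gave 12.09, 12.62, 12.17, 12.10 and 12.03, and marrow MP arrays 11.53, 11.04, 11.51, 10.50 and 11.39. All 10 muscle arrays lay above all 10 marrow arrays, and within marrow all SP arrays lay above all MP arrays, while the muscle groups overlapped. Muscle was 2.31-fold higher than marrow in SP cells (log2 1.21 ± 0.19, SE, adjusted p = 1.41e-05) and 4.90-fold higher in MP cells (2.29 ± 0.19, adjusted p = 5.49e-10). Marrow SP was 2.01-fold higher than marrow MP (1.01 ± 0.19, adjusted p = 0.000236), the muscle change was -0.08 ± 0.19 (adjusted p = 0.863), and the changes differed by -1.09 ± 0.26 (adjusted p = 0.00526). With median scaling the marrow change was 0.55 (adjusted p = 0.0492) and the last call was lost (-0.67, adjusted p = 0.126).

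Ndufa8 and Ndufa7, further accessory subunits, were higher in muscle SP than in marrow SP cells. The Ndufa8 signal was 11.82, 12.19, 12.32, 13.06 and 12.51 in muscle SP and 10.68, 11.24, 11.01, 11.51 and 11.13 in marrow SP, with no overlap (1.26 ± 0.22, adjusted p = 7.87e-05). In MP cells Ndufa8 differed by 0.66 ± 0.22 (adjusted p = 0.0178) with overlapping groups, and this call was lost without muscle MP 2 (adjusted p = 0.0521), muscle MP 3 (0.0502) or marrow MP 1 (0.052) and with median scaling (0.0984). The Ndufa7 signal was 11.63, 11.53, 12.21, 12.22 and 11.84 in muscle SP against 10.97, 11.50, 10.56, 10.58 and 10.87 in marrow SP, again without overlap (0.99 ± 0.23, adjusted p = 0.00137). In MP cells the Ndufa7 difference was 0.47 ± 0.23 (adjusted p = 0.101).

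Ndufs3 and Ndufv1 are core subunits of the matrix arm, and Ndufv1 holds the site where NADH is oxidised. Ndufs3 was low in marrow MP cells, with 12.01, 11.68, 11.46, 11.38 and 12.89, and 1 of these 5 arrays, array 5, lay with the other groups. Marrow SP arrays gave 13.04, 13.23, 12.86, 12.25 and 12.53, and the muscle means were 12.72 in SP and 12.83 in MP cells. Marrow SP exceeded marrow MP by 0.90 ± 0.25 (adjusted p = 0.00821), though not with median scaling (0.35, adjusted p = 0.332) or a fit of only these 2 groups (adjusted p = 0.0547). Muscle MP exceeded marrow MP by 0.95 ± 0.25 (adjusted p = 0.00345), a call kept in all 31 alternatives.

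Ndufv1 was high in muscle MP cells, with 13.31, 13.57, 13.78, 13.97 and 14.17. Muscle SP gave 12.85, 13.25, 13.22, 13.14 and 12.81, below every muscle MP array, and marrow MP gave 12.88, 12.67, 12.51, 12.86 and 12.94. Muscle MP was thus above marrow MP by 0.99 ± 0.22 (adjusted p = 0.00068), and Ndufv1 fell by 0.71 from MP to SP in muscle (SE 0.22, adjusted p = 0.0374). The muscle SP against MP call was lost with the GAPDH ratio as a covariate (-0.37, adjusted p = 0.415) and without any of 6 arrays, muscle SP 1, 4 or 5 or muscle MP 3, 4 or 5, where adjusted p reached 0.101. The difference between tissues in this change was -0.96 ± 0.31 (adjusted p = 0.0324) and was lost without any of 8 arrays (highest adjusted p 0.0656), with median scaling (-0.35, adjusted p = 0.415) and with no further normalization (-0.76, adjusted p = 0.0633).

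Of the other complex I members, Ndufb2 had 2 tested probe sets that were both higher in muscle MP than in marrow MP cells, by 1.11 ± 0.24 (adjusted p = 0.000534) and 0.52 ± 0.18 (adjusted p = 0.0187); the smaller call was lost with median scaling (0.0727) and without muscle MP 2 (0.0518), marrow MP 1 (0.057) or marrow MP 5 (0.0616). Ndufa9 was higher there by 0.77 ± 0.23 (adjusted p = 0.00738) and Ndufb5 by 0.77 ± 0.19 (adjusted p = 0.00168). Both calls were lost with median scaling, where the differences were 0.46 and 0.36. Ndufv3 was lower, by 0.55 (SE 0.21, adjusted p = 0.0332), and lost its call without any of 7 arrays and with no further normalization (-0.41, adjusted p = 0.158). In SP cells Ndufb6, Ndufb8 and Ndufc2 were higher in muscle by 0.64, 0.62 and 0.60. The Ndufb8 call was lost without any of 6 arrays and the Ndufc2 call without any of 5, with adjusted p up to 0.111 and 0.0849, while the Ndufb6 call held without each array and was lost without the 3 arrays of highest GAPDH ratio (adjusted p = 0.0652). With no further normalization the Ndufb8 and Ndufc2 differences were 0.49 and 0.29 (adjusted p = 0.0997 and 0.381), and the Ndufc2 call was also lost with median scaling (adjusted p = 0.0868).

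Within marrow, Ndufb5 was 0.68 higher in SP cells (SE 0.19, adjusted p = 0.00799) and Ndufa2 0.44 higher (SE 0.14, adjusted p = 0.0218), and both were at or below 0 with median scaling and did not pass with no further normalization (adjusted p = 0.0522 and 0.0682). Ndufa2 also lost its call without marrow SP 2, marrow MP 1 or marrow MP 4 (highest adjusted p 0.0568). Ndufb3, a small subunit of the membrane arm, was lower in SP cells by 0.83 (SE 0.29, adjusted p = 0.0376), with 10.75, 10.04, 10.05, 11.04 and 11.17 against 11.81, 11.67, 11.00, 11.05 and 11.65, and lost its call without marrow SP 2 or 3 or marrow MP 1, 2 or 5 (highest adjusted p 0.107) and with no further normalization (-0.68, adjusted p = 0.0591). Ndufa3 was lower by 0.71 (SE 0.21, adjusted p = 0.0132) for 1 probe set, though not with no further normalization (-0.21, adjusted p = 0.411), and its other probe set had -0.47, which did not pass the test. Ndufc2 was lower by 0.56 (SE 0.21, adjusted p = 0.0498), lost without any of 15 arrays and at 0.02 with no further normalization. The opposite sign in muscle, 0.51, made the Ndufc2 change differ between tissues by 1.07 ± 0.30 (adjusted p = 0.0149), which did not hold with no further normalization (0.62, adjusted p = 0.25). The other 14 complex I genes passed the test in 0 comparisons. The largest of their differences was 0.70, for Ndufb9, in how the SP against MP change differed between tissues. Several of them passed in other settings. Ndufv2 was higher in marrow SP than in marrow MP cells with the GAPDH ratio as a covariate (1.00, adjusted p = 0.0287). Without muscle SP 1, Ndufb9 was higher in muscle SP than in marrow SP cells (0.75, adjusted p = 0.0169).

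**Figure D2:**
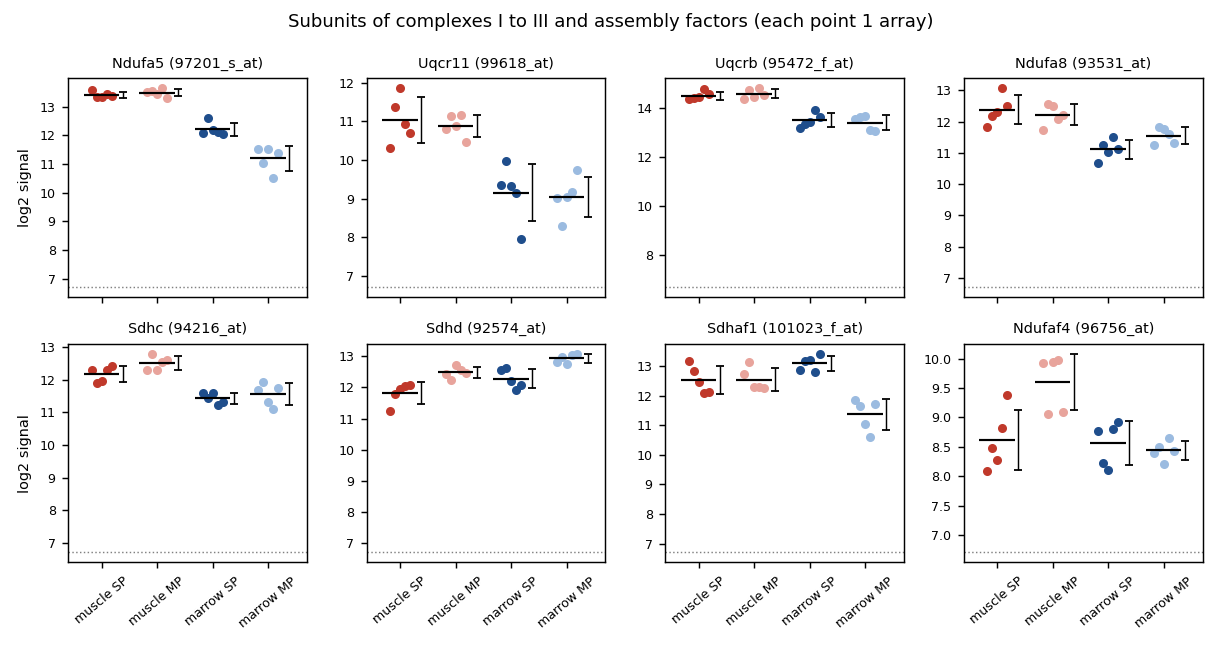
Log2 signal of 8 probe sets on the 20 arrays, a point per array in its group's colour, with the group mean (black line) and SD (bar, n = 5); each panel has its own scale and the dotted line is the floor at 6.71. All muscle arrays lie above all marrow arrays for Ndufa5, Uqcr11 and Uqcrb, for Sdhc they do so within SP and within MP cells, Sdhd is lower in SP than in MP cells of both tissues, and Sdhaf1 is low on the 5 marrow MP arrays.

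Complex II, succinate dehydrogenase, has 4 subunits, all coded in the nucleus and each measured by 1 probe set. Sdhc and Sdhd are the pair that anchors the enzyme in the membrane and binds ubiquinone. Sdhc was higher in muscle in both populations, and Sdhd was lower in SP than in MP cells of both tissues. Only between MP cells did both pass, with opposite signs, and there the Sdhd call was lost without any of 10 arrays. The catalytic Sdha and the iron-sulfur subunit Sdhb passed the test in 0 of 5 comparisons.

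For Sdhc the muscle SP arrays gave 12.31, 11.89, 11.96, 12.31 and 12.42 and the muscle MP arrays 12.32, 12.80, 12.30, 12.55 and 12.62. Marrow SP arrays gave 11.60, 11.44, 11.60, 11.22 and 11.32, and marrow MP arrays 11.69, 11.95, 11.32, 11.10 and 11.74. Muscle was higher without overlap in SP cells (0.74 ± 0.18, adjusted p = 0.00204) and in MP cells (0.96 ± 0.18, adjusted p = 0.000117), and both calls were kept in all 31 alternatives.

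Sdhd was lower in SP than in MP cells of both tissues, by 0.66 in each (SE 0.18, adjusted p = 0.0207 in muscle and 0.00808 in marrow), and the changes differed by 0.01 ± 0.26 (adjusted p = 0.993). With median scaling the changes were -0.78 in muscle and -1.28 in marrow. Muscle SP gave 11.24, 11.77, 11.94, 12.06 and 12.09 against 12.42, 12.23, 12.72, 12.56 and 12.46 in muscle MP. Marrow SP gave 12.54, 12.62, 12.19, 11.92 and 12.07 against 12.82, 12.97, 12.74, 13.05 and 13.07 in marrow MP. The groups did not overlap in either tissue. Both differences shrank with the GAPDH 3′ to 5′ ratio as a covariate, to -0.31 (adjusted p = 0.37) in muscle and -0.35 (adjusted p = 0.181) in marrow, and in muscle it no longer passed without muscle SP 1 (adjusted p = 0.0544), muscle MP 3 (0.0629) or muscle MP 4 (0.0505). Sdhd was also lower in muscle MP than in marrow MP cells (-0.46 ± 0.18, adjusted p = 0.0464), a call lost without any of 10 arrays.

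Sdha had means of 9.63 ± 0.76 (SD, n = 5) in muscle SP, 10.21 ± 0.36 in muscle MP, 9.57 ± 0.46 in marrow SP and 10.11 ± 0.25 in marrow MP cells. Its SP against MP differences of -0.58 and -0.55 had the sign of Sdhd but did not pass the test (adjusted p = 0.235 and 0.173). Sdhb had 11.67 ± 0.78, 11.61 ± 0.32, 11.19 ± 0.34 and 11.21 ± 0.37 in the same order. Its difference between muscle and marrow SP cells, 0.48 (adjusted p = 0.207), became 0.80 (adjusted p = 0.0088) without muscle SP 1, whose Sdhb value of 10.40 was the lowest of all 20 arrays.

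In complex III, the cytochrome bc1 complex, 2 of the 7 genes taken by symbol were higher in muscle than in marrow cells of both populations. This is 28.6% of these 7 probe sets, against 38.3% of all probe sets in SP and 46.5% in MP cells. For SP against MP 0 of these 7 passed in either tissue, against 11.7% of all in muscle and 30.2% in marrow. Cyc1, a complex III subunit with another symbol, is not among the 7 and is given with the other mitochondrial genes below. Uqcr11, a small subunit, gave 10.32, 11.37, 11.86, 10.92 and 10.70 in muscle SP and 10.79, 11.14, 10.87, 11.18 and 10.47 in muscle MP. In marrow SP cells it read 9.36, 9.98, 9.33, 9.14 and 7.94, and marrow MP arrays 9.01, 8.30, 9.04, 9.16 and 9.74. Every muscle array was above every marrow array. Muscle exceeded marrow 3.69-fold in SP cells (1.88 ± 0.33, adjusted p = 6.27e-05) and 3.58-fold in MP cells (1.84 ± 0.33, adjusted p = 6.12e-05).

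Uqcrb, which lies at the ubiquinone pocket, was among the brightest members. It gave 14.38, 14.43, 14.46, 14.79 and 14.59 in muscle SP and 14.39, 14.75, 14.49, 14.82 and 14.54 in muscle MP. The marrow SP values were 13.21, 13.35, 13.46, 13.92 and 13.67, and marrow MP arrays 13.56, 13.65, 13.70, 13.12 and 13.09. Here too no marrow array reached a muscle array, and the differences were 1.01 ± 0.18 in SP cells (adjusted p = 6.67e-05) and 1.17 ± 0.18 in MP cells (adjusted p = 6.99e-06). The Uqcr11 and Uqcrb calls were kept in all 31 alternatives. With median scaling the Uqcrb difference in MP cells was 0.74. The Uqcrb probe set is among those that can bind related sequences. The core proteins Uqcrc1 and Uqcrc2 and the subunits Uqcrh, Uqcrq and Uqcr10 had tissue differences between -0.33 and 0.48, and they passed the test in 0 comparisons. The closest was Uqcrh, 0.53 higher in marrow SP than in marrow MP cells (adjusted p = 0.0515). Uqcrh passed there without muscle SP 1 (adjusted p = 0.0271) and without the 3 arrays of highest GAPDH ratio (0.60, adjusted p = 0.0248). With median scaling Uqcrc1 was lower in marrow SP than in marrow MP cells (-0.69, adjusted p = 0.0229). In that setting Uqcrq was higher in muscle SP than in marrow SP cells (0.83, adjusted p = 0.0247).

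Complex IV, cytochrome c oxidase, holds several isoforms of its small subunits, and these are described first. Cox6a2 and Cox6b2 were both lower in muscle than in marrow MP cells, Cox7a2 was higher in muscle in both populations, and Cox7a1 was near the floor everywhere. Of 20 tested probe sets, 3 were higher and 1 lower in marrow SP than in marrow MP cells (20% against 30.2% of all), and 0 passed in muscle SP against MP (11.7% of all). Between tissues 2 were higher and 1 lower in SP cells (15% against 38.3%) and 3 higher and 2 lower in MP cells (25% against 46.5%).

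Cox6a2, the isoform of heart and skeletal muscle, was highest in marrow MP cells, with 10.40, 10.61, 10.56, 10.26 and 10.37. Muscle SP arrays gave 9.22, 8.20, 8.29, 7.12 and 8.36, muscle MP arrays 8.39, 9.10, 8.74, 8.33 and 7.81, and marrow SP arrays 8.97, 8.59, 8.51, 8.51 and 7.02. All 5 marrow MP arrays stood above the other 15, and the other groups overlapped. Marrow SP was 4.36-fold below marrow MP (-2.12 ± 0.34, adjusted p = 4.92e-05), and muscle MP 3.91-fold below it (-1.97 ± 0.34, adjusted p = 4.43e-05). The SP against MP change differed between tissues by 1.89 ± 0.48 (adjusted p = 0.00768), with -0.24 in muscle (adjusted p = 0.747). These 3 calls were kept in all alternatives. Its general counterpart Cox6a1 had another order, with means of 14.40 ± 0.18 (SD, n = 5) in muscle SP, 13.98 ± 0.34 in muscle MP, 13.96 ± 0.18 in marrow SP and 13.31 ± 0.29 in marrow MP cells. Cox6a1 was higher in marrow SP than in marrow MP cells by 0.64 ± 0.18 (adjusted p = 0.0096). It was higher in muscle MP than in marrow MP cells by 0.67 ± 0.18 (adjusted p = 0.0044). With median scaling these were -0.07 and 0.31, and neither passed. Between SP cells Cox6a1 did not pass in the main fit. It was higher in muscle SP with median scaling (0.84, adjusted p = 0.00533) and with no further normalization (0.61, adjusted p = 0.0134).

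Cox6b2, the isoform known from testis, separated the tissues. Its bright probe set gave 7.08, 8.40, 8.46, 8.55 and 8.56 in muscle SP, 6.87, 8.18, 8.12, 7.89 and 7.65 in muscle MP, 9.60, 9.96, 9.17, 9.82 and 10.22 in marrow SP and 9.88, 9.68, 9.76, 9.50 and 10.13 in marrow MP cells. All 10 marrow arrays were above all 10 muscle arrays. The differences were -1.54 ± 0.28 in SP (adjusted p = 0.000122) and -2.04 ± 0.28 in MP cells (adjusted p = 2.49e-06), and they were kept in all 31 alternatives. The other tested probe set was at the floor on 13 of 20 arrays and passed in 0 comparisons (-0.61, adjusted p = 0.172 in SP cells; -0.10, adjusted p = 0.84 in MP cells), and the third was above the floor on 1 array. The tissue difference of Cox6b2 therefore rests on a single probe set, and that one can bind related sequences. The general isoform Cox6b1 had group means between 8.84 and 9.21 and passed in 0 comparisons.

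Cox7a1, the form of heart and skeletal muscle, was at the floor on 15 of 20 arrays, with a highest value of 7.42 on muscle SP 3, so no difference in it was measurable. Cox7a2, the general form, gave 13.19, 13.51, 13.94, 13.91 and 14.04 in muscle SP and 13.00, 12.78, 12.83, 12.82 and 12.72 in marrow SP cells. These groups did not overlap (0.89 ± 0.17, adjusted p = 0.000264). Muscle MP arrays gave 13.40 to 13.64 and marrow MP arrays 12.61 to 13.24, also apart (0.62 ± 0.17, adjusted p = 0.00549), though with median scaling the MP difference was 0.32 (adjusted p = 0.282). Cox7a2l, a related protein that helps complexes III and IV to join, was higher in marrow SP than in marrow MP cells without overlap (0.86 ± 0.20, adjusted p = 0.00195; 0.19 with median scaling, adjusted p = 0.622). In muscle its difference was 0.55 ± 0.20 (adjusted p = 0.0784), and it passed without muscle SP 1 (0.70, adjusted p = 0.0155).

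Of the other complex IV genes, Cox6c was higher in muscle in SP cells (0.46 ± 0.17, adjusted p = 0.0421) and in MP cells (0.53 ± 0.17, adjusted p = 0.0153) by its bright probe set. The SP call was lost without muscle SP 4 (0.0966), muscle SP 5 (0.104), marrow SP 1 (0.113), marrow SP 3 (0.0522) or marrow SP 5 (0.109), and without the 3 arrays of highest GAPDH ratio (0.0665). The Cox6c MP difference was 0.04 with median scaling (adjusted p = 0.876) and 0.23 with no further normalization (adjusted p = 0.316), and the call was also lost without muscle MP 4 (0.0509). The other 2 Cox6c probe sets lay mostly at the floor. Cox7b was higher in marrow SP than in marrow MP cells (0.72 ± 0.27, adjusted p = 0.044), a call lost without any of 10 arrays and with median scaling (0.25, adjusted p = 0.604). Cox4i1, Cox5a, Cox5b, Cox8a, Cox8b and Cox8c passed in 0 comparisons. The 2 probe sets of Cox4i1 had means of 10.12 to 10.46 and 8.50 to 9.08 over the groups, and Cox5a had 6.97 to 7.31. Cox4i2 and Cox7c were not analysed here. Cox5b had 12.02 ± 0.88 (SD, n = 5) in muscle SP and 11.47 ± 0.22 in muscle MP cells (adjusted p = 0.329), and without the 3 arrays of highest GAPDH ratio the difference was 0.87 (adjusted p = 0.0218). Cox8b, the muscle form of its subunit, had means of 9.04, 8.81, 9.68 and 9.38 in muscle SP, muscle MP, marrow SP and marrow MP cells for its bright probe set. Without muscle SP 1, where it read 10.46 against 8.48 to 8.84 on the other 4 arrays, Cox8b was 1.01 lower in muscle SP than in marrow SP cells (adjusted p = 0.00439), against 0.64 with it (adjusted p = 0.132). The means of Cox8a lay between 6.85 and 7.37, near the floor, and those of Cox8c between 10.98 and 11.54.

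**Figure D3:**
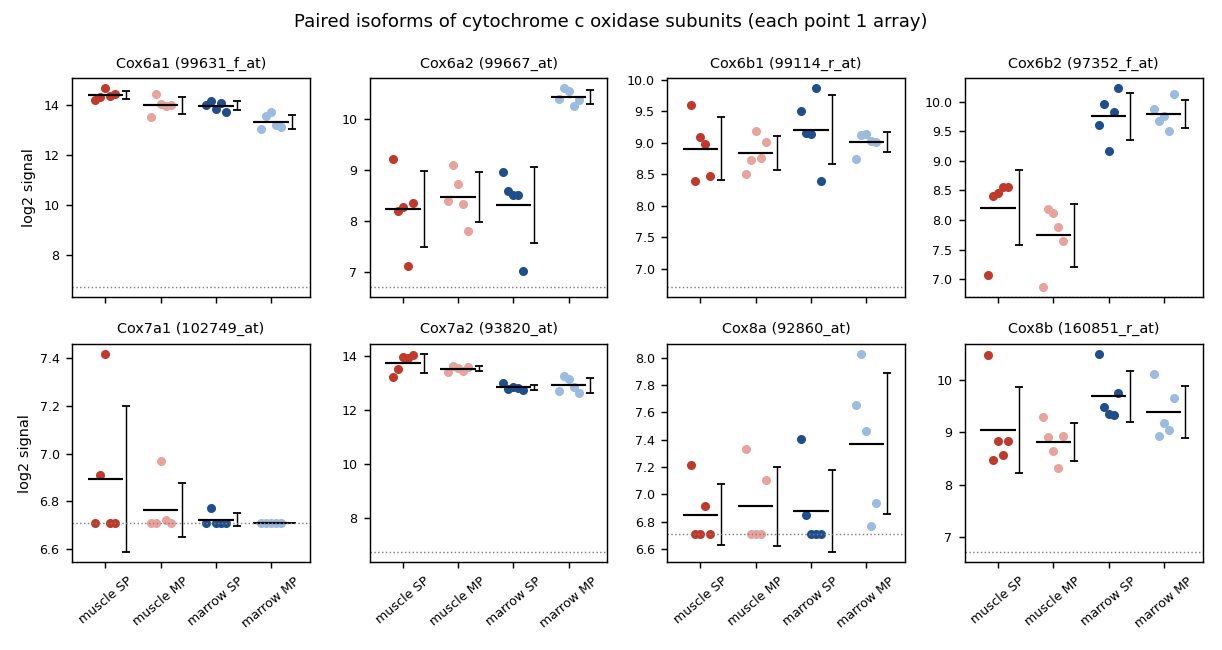
Log2 signal of isoform pairs of 4 complex IV subunits, with the general form beside the muscle or testis form, a point per array, group means (line) and SD (bar, n = 5); scales differ between panels and levels of different genes are not comparable. Cox6a2 is high on the 5 marrow MP arrays (10.26 to 10.61), Cox6b2 is higher on all 10 marrow arrays, and Cox7a1 lies at the floor on most.

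ATP synthase had 22 tested probe sets for 14 genes. In marrow 5 of them were higher and 1 lower in SP than in MP cells (27.3%, near the 30.2% of all probe sets); 3 of the 5 were probe sets of Atp5d, the others Atp5o and Atp5g2, and the lower one was Atp5l. Between tissues 2 were higher and 1 lower in muscle SP cells (13.6% against 38.3% of all) and 2 higher and 3 lower in muscle MP cells (22.7% against 46.5%). In muscle 0 of 22 passed for SP against MP, against 11.7% of all.

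Atp5d, the delta subunit of the central stalk, had 5 tested probe sets, and 3 of them were higher in marrow SP than in marrow MP cells, by 0.84 ± 0.23 (adjusted p = 0.00659), 0.77 ± 0.22 (adjusted p = 0.0121) and 0.80 ± 0.28 (adjusted p = 0.036). The first gave 10.97, 10.78, 10.48, 10.87 and 9.91 against 9.53, 10.00, 9.84, 9.68 and 9.73, and only marrow SP 5 reached into the range of marrow MP. Its call was kept in all 31 alternatives, whereas the third lost its call without any of 7 arrays. With median scaling the other called probe sets were 0.58 (adjusted p = 0.0558) and 0.55 (adjusted p = 0.144), and both also missed the threshold with the GAPDH ratio as a covariate (adjusted p = 0.0657 and 0.136). All 3 can bind related sequences, and the remaining 2 probe sets had 0.44 and 0.11 and did not pass. In muscle the first 2 had 0.60 and 0.61 (adjusted p = 0.0953 and 0.0851), and the first of them passed without muscle SP 1 (0.74, adjusted p = 0.0363).

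Atp5o, of the stalk that holds the head still, gave 12.52, 12.34, 11.88, 11.73 and 11.56 in marrow SP and 11.14, 11.56, 10.67, 10.65 and 11.58 in marrow MP cells, with the lowest SP arrays at the level of the highest MP arrays. The difference was 0.89 ± 0.24 (adjusted p = 0.00651; 0.44 with median scaling, adjusted p = 0.195), and muscle MP exceeded marrow MP by 0.79 ± 0.24 (adjusted p = 0.00855). Atp5g2 codes for the c subunit of the rotor ring, as Atp5g1 does. By its bright probe set Atp5g2 was higher in marrow SP than in marrow MP cells, with 11.95, 12.21, 11.76, 12.40 and 11.76 against 11.00, 11.10, 11.52, 10.87 and 11.21 (0.87 ± 0.18, adjusted p = 0.00054; 0.45 with median scaling, adjusted p = 0.0752). The same probe set was 0.59 lower in muscle SP than in marrow SP cells (SE 0.18, adjusted p = 0.00934; -0.37 with median scaling, adjusted p = 0.138). The dimmer Atp5g2 probe set had 0.09 in marrow SP against MP (adjusted p = 0.873), so the 2 did not agree. It was 0.74 lower in muscle MP than in marrow MP cells (SE 0.30, adjusted p = 0.0499), lost without any of 14 arrays, and was -0.36 with the floor at the 40th percentile (adjusted p = 0.219).

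Atp5g1 also had 2 probe sets that did not agree. Its dimmer probe set was 0.76 higher in muscle SP than in marrow SP cells (SE 0.24, adjusted p = 0.0165). This difference was 0.09 with the floor at the 40th percentile (adjusted p = 0.593), 0.47 with no further normalization (0.152) and 0.56 without the 3 arrays of highest GAPDH ratio (0.142), and the call was also lost without muscle SP 3 (0.0539). The brighter Atp5g1 probe set was 0.56 lower in muscle MP than in marrow MP cells (SE 0.20, adjusted p = 0.0224), lost with no further normalization (-0.39, adjusted p = 0.172) and without muscle MP 4 (0.0623), marrow MP 1 (0.0564) or marrow MP 5 (0.0647). Atp5j, coupling factor 6 of the stator stalk, was higher in muscle in SP cells (0.65 ± 0.23, adjusted p = 0.0279) and in MP cells (0.61 ± 0.23, adjusted p = 0.0329), and lost these calls without any of 5 and any of 4 arrays (highest adjusted p 0.0854 and 0.117). The SP difference of Atp5j was 0.37 without the 3 arrays of highest GAPDH ratio (adjusted p = 0.257) and 1.08 with median scaling. Its MP difference was 0.25 with median scaling (adjusted p = 0.351) and 0.43 with no further normalization (adjusted p = 0.139). Atp5l, a membrane subunit at the contact of paired ATP synthases, was highest in marrow MP cells by its dimmer probe set, with 8.97, 9.30, 9.14, 9.18 and 9.46. Marrow SP arrays gave 8.15, 8.62, 8.36, 8.70 and 8.77 (-0.69 ± 0.20, adjusted p = 0.0122) and muscle MP arrays 8.33, 8.64, 8.39, 8.86 and 8.20 (-0.72 ± 0.20, adjusted p = 0.00525), neither overlapping marrow MP. The marrow difference did not pass with no further normalization (-0.20, adjusted p = 0.414) or with the GAPDH ratio as a covariate (-0.61, adjusted p = 0.071), and the other Atp5l probe set had -0.34 and -0.03 in these comparisons and did not pass. Atp5a1 and Atp5c1 of the catalytic head, Atp5pb, Atp5e, Atp5j2, Atp5k, Atp5md and Atp5mpl passed in 0 comparisons; Atp5k had a marrow SP mean of 7.44 ± 0.85 (SD, n = 5) and a difference of -1.01 from marrow MP (adjusted p = 0.06).

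**Figure D4:**
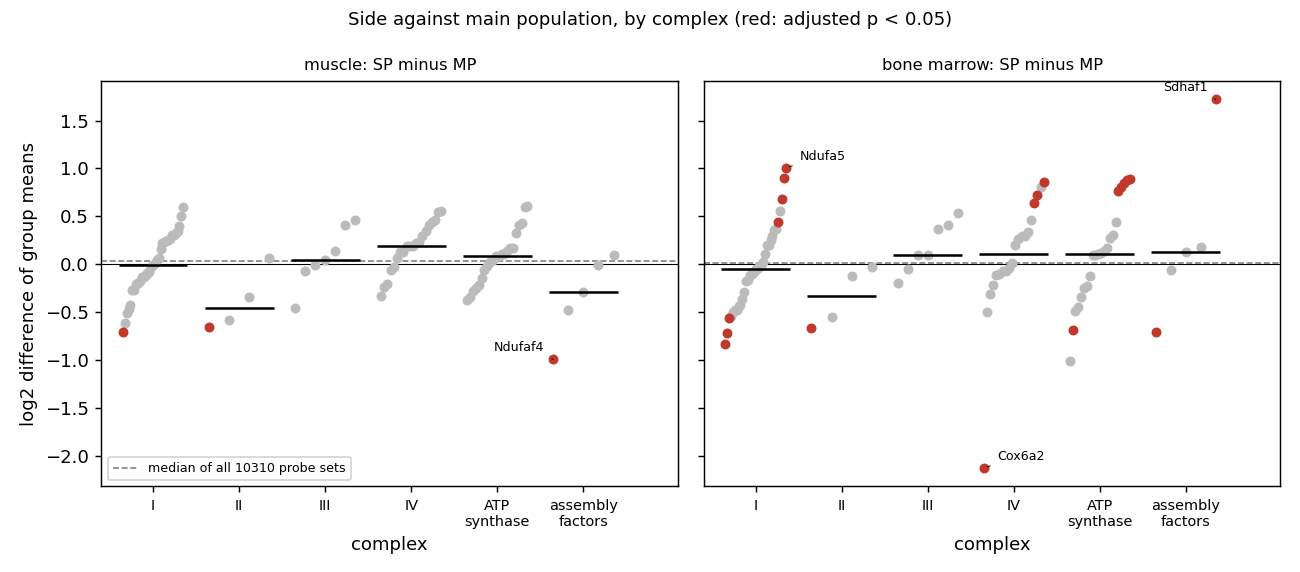
Log2 difference SP minus MP of each tested member, by complex, in muscle (left) and bone marrow (right); red points passed the test, black lines are medians of the complex and the dashed line is the median of all 10310 probe sets. In marrow Sdhaf1 (1.72) and Ndufa5 (1.01) lie highest and Cox6a2 (-2.12) lowest, and in muscle the 3 red points (Ndufaf4, Ndufv1, Sdhd) are all below 0.

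The 4 assembly factors had 5 tested probe sets. Of these 2 were higher and 1 lower in muscle MP than in marrow MP cells (60%, against 46.5% of all probe sets). Between SP cells 1 was lower in muscle (20% against 38.3%). In marrow 1 was higher and 1 lower in SP than in MP cells (40% against 30.2%), and in muscle 1 was lower (20% against 11.7%). The change from MP to SP differed between tissues for 2, both lower in muscle (40% against 18.5%). Sdhaf1, which helps to place iron-sulfur clusters in Sdhb, was low in marrow MP cells, with 11.85, 11.65, 11.06, 10.60 and 11.70. In marrow SP cells the values were 12.86, 13.18, 13.22, 12.79 and 13.41, muscle SP arrays 13.17, 12.82, 12.45, 12.09 and 12.11, and muscle MP arrays 12.72, 13.15, 12.28, 12.29 and 12.24. All marrow MP arrays lay below the other 15. Marrow SP exceeded marrow MP 3.29-fold (1.72 ± 0.26, adjusted p = 2.4e-05) and muscle MP exceeded it 2.24-fold (1.16 ± 0.26, adjusted p = 0.000723). The muscle SP against MP change was -0.01, and the tissues differed by -1.73 ± 0.37 (adjusted p = 0.00179). These calls were kept in all alternatives. They rest on 1 probe set, which can bind related sequences. Sdhb itself did not follow this pattern: its marrow SP against MP difference was -0.03 ± 0.29 (adjusted p = 0.976).

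Sdhaf2, which helps to attach the flavin to Sdha, was highest in marrow MP cells, with 9.51, 9.04, 9.80, 9.91 and 9.71 against 8.66, 9.25, 8.88, 8.69 and 8.94 in marrow SP cells (-0.71 ± 0.21, adjusted p = 0.0114). The groups overlapped by 1 array each, and the call was lost with no further normalization (-0.27, adjusted p = 0.355) and with the GAPDH ratio as a covariate (-0.41, adjusted p = 0.19). Muscle MP was below marrow MP by 0.75 (SE 0.21, adjusted p = 0.00478). Ndufaf4, a complex I assembly factor, was high in muscle MP cells, with 9.93, 9.06, 9.95, 9.98 and 9.10. Muscle SP arrays gave 8.10, 8.48, 8.27, 8.83 and 9.38 and marrow MP arrays 8.40, 8.50, 8.22, 8.66 and 8.43. Muscle MP was above marrow MP without overlap (1.16 ± 0.25, adjusted p = 0.000488). In muscle Ndufaf4 fell by 0.99 from MP to SP (SE 0.25, adjusted p = 0.0106), a call lost with the GAPDH ratio as a covariate (-0.76, adjusted p = 0.126) or a fit of only these groups (adjusted p = 0.061). The difference between tissues in the Ndufaf4 change was -1.12 ± 0.35 (adjusted p = 0.0292) and was lost without any of 8 arrays and without the 3 arrays of highest GAPDH ratio (-0.80, adjusted p = 0.153). Ndufaf1, which helps to build the membrane arm of complex I, was lower in muscle SP than in marrow SP cells, with 9.50, 9.86, 9.63, 9.47 and 9.39 against 10.30, 11.04, 10.42, 10.02 and 10.09 (-0.81 ± 0.19, adjusted p = 0.00143); its dim second probe set had -0.50 and did not pass.

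**Figure D5:**
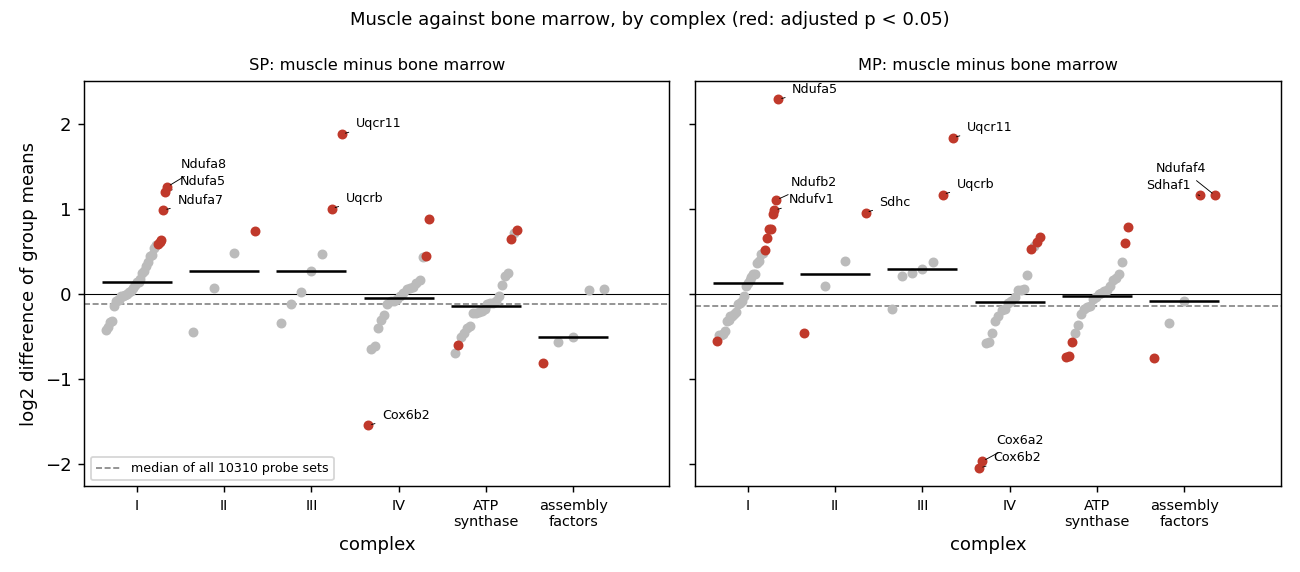
Log2 difference muscle minus bone marrow of each tested member, by complex, in SP (left) and MP cells (right); red points passed the test, black lines are medians of the complex and the dashed line is the median of all 10310 probe sets. Ndufa5, Uqcr11 and Uqcrb are above 1 in both panels, and Cox6b2 is the lowest point in both (-1.54 and -2.04).

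The other mitochondrial genes were described from lists written with earlier results of these data known. The lists are given by counts, to be read beside the shares of all probe sets above. Counts and differences here are from the quantile-normalized arrays only. The counts of the members depended on the scaling, and those of these lists under other scalings are not given. Cytochrome c1 (Cyc1) is the complex III subunit that hands electrons to cytochrome c, and its symbol falls outside the prefixes of the members. By 1 of its 2 probe sets Cyc1 was higher in marrow SP than in marrow MP cells (0.91, adjusted p = 0.0108). That probe set was also higher in muscle MP than in marrow MP cells (1.05, adjusted p = 0.00202). The other Cyc1 probe set had -0.13 and -0.6 and did not pass (adjusted p = 0.777 and 0.0699). Cytochrome c itself (Cycs) was lower in muscle MP than in marrow MP cells (-0.80, adjusted p = 0.0238). Of 7 probe sets for electron carriers and other subunits, 2 were higher and 1 lower in marrow SP than in marrow MP cells (15.4% and 14.8% of all). In that comparison the 2 probe sets of Etfb passed in opposite directions (-0.78, adjusted p = 0.00403, and 0.83, adjusted p = 0.0071). In muscle SP against MP 0 of the 7 passed, against 11.7% of all. Of 8 other assembly factors 3 were higher and 2 lower in muscle MP than in marrow MP cells (20.9% and 25.6% of all). Uqcc2 (1.45) for complex III and Acad9 (1.02) for complex I were among those higher.

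The citric acid cycle and pyruvate dehydrogenase had 23 probe sets. Of these 5 were higher and 2 lower in marrow SP than in marrow MP cells (15.4% and 14.8% of all). In muscle MP against marrow MP cells 8 of the 23 were higher and 3 lower (20.9% and 25.6% of all). Idh2, the mitochondrial isocitrate dehydrogenase that uses NADP, changed in opposite directions: it fell by 1.04 from MP to SP in muscle (SE 0.2, adjusted p = 0.00122) and rose by 1.00 in marrow (adjusted p = 0.000522), and the tissues differed by -2.04 (adjusted p = 2.6e-05). Pdk4, a kinase that shuts off pyruvate dehydrogenase, was 2.66 higher in muscle MP than in marrow MP cells (adjusted p = 1.08e-07), and Pdk3 was lower in muscle in both populations (-2.14 and -1.67). The ADP/ATP carrier Slc25a4, which exports the ATP made by ATP synthase, was 1.46 higher in marrow SP than in marrow MP cells (adjusted p = 1.15e-06) and 2.06 higher in muscle MP than in marrow MP cells (adjusted p = 1.03e-09). As with Ndufa5, its mean was lowest in marrow MP and next lowest in marrow SP cells. Of its list of 13 carrier and channel probe sets, 1 was higher and 0 lower in each SP against MP comparison. Of all probe sets 5.1% were higher and 6.64% lower in muscle, and 15.4% and 14.8% in marrow.

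Among 19 probe sets for regulators of mitochondrial biogenesis, 4 were higher and 1 lower in muscle SP than in muscle MP cells (5.1% and 6.64% of all). In marrow SP against MP 4 of the 19 were higher and 4 lower (15.4% and 14.8% of all). Pprc1, a coactivator related to PGC-1, was higher in SP cells by 1.30 in muscle and 1.29 in marrow, and the mitochondrial single-strand DNA-binding protein Ssbp1 was lower by 1.54 and 1.46. Nrip1, a corepressor of oxidative genes, was higher in SP cells by 0.84 in muscle and 2.20 in marrow, and these changes differed (-1.36, adjusted p = 0.00192). Of 69 probe sets for mitochondrial ribosomal proteins 15 were higher and 3 lower in marrow SP than in marrow MP cells (15.4% and 14.8% of all). In muscle SP against marrow SP cells 2 of the 69 probe sets were higher and 16 lower (17.1% and 21.2% of all). Of 19 for protein import 1 was higher and 7 lower in the latter comparison, whereas the members had 13 higher and 3 lower.

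Markers of other cell types also differed between the groups, and their part in the results was not tested. A summed signal is carried by the brightest genes of its list, and genes whose log2 means went another way are named. Summed signals of 16 muscle fibre genes ran from 8218 to 30297 in muscle SP and 9995 to 21444 in muscle MP cells, and from 5823 to 9549 in marrow SP and 5454 to 8050 in marrow MP cells. Of the 16, 13 and 12 were above the floor on at least 3 arrays in muscle SP and MP, and 9 and 10 in marrow SP and MP; Mb and Myh1 were at the floor on all marrow arrays, Tnni2 on all but 2 muscle SP arrays and Myh2 on all 20. Ckm (7.42 and 7.90), Myh4 (7.11 and 7.27) and Myh7 (6.79 and 7.11) had lower means in muscle MP than in marrow MP cells. The summed values stand beside the tissue differences of Ndufa5, Uqcr11, Uqcrb and Sdhc. Granulocyte genes, 6 of 6 detected in marrow, summed to 79083 to 182410 in marrow SP and 235119 to 257843 in marrow MP cells, and to 844 to 34082 over both muscle groups. Macrophage genes summed to 10400 to 46281 in marrow SP and 64541 to 76364 in marrow MP cells, and B lineage genes to 1147 to 3035 and 8534 to 14720. T and NK genes were higher in SP cells, with 8807 to 24807 in marrow SP and 2205 to 2972 in marrow MP cells. Blood stem cell genes were also higher, with 12505 to 20750 in marrow SP and 2015 to 3409 in marrow MP cells. So were erythroid genes (23415 to 54679 and 12569 to 20366) and proliferation genes (37988 to 41323 and 25734 to 30962). Unlike their sums, erythroid Klf1 had means of 8.85 in marrow SP and 8.94 in marrow MP cells, granulocyte Prtn3 11.45 and 11.43. Macrophage Mrc1, near the floor, had 7.01 and 6.91. The marrow sums stand beside the marrow differences of Cox6a2, Sdhaf1, Ndufa5 and Atp5g2. In muscle, satellite cell genes summed to 1912 to 2284 in SP and 5369 to 7841 in MP cells. Fibroblast genes there summed to 64773 to 112529 and 170156 to 248179, and endothelial genes to 82249 to 96855 and 58693 to 72294. Of the satellite cell genes Des alone had a higher mean in SP cells (9.86 and 9.52). Of the endothelial genes Vwf had 14.37 and 12.13, whereas Kdr was lower in SP cells (14.45 and 14.70) and Cdh5 had 14.49 and 14.44. Pecam1, Tek and Tie1 had higher means in muscle SP cells. Macrophage genes there summed to 3273 to 8908 in SP and 13454 to 15420 in MP cells, B lineage genes to 436 to 652 and 1112 to 2086, and T and NK genes to 1206 to 7379 and 345 to 492. These stand beside the muscle differences of Ndufaf4, Ndufv1 and Sdhd.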

How the data were processed

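The labels name single-colour arrays of total RNA from 4 sorted populations, 5 arrays each. The deposited value is a signal intensity per probe set on a linear scale, with a 2% trimmed mean of 1501 on the arrays; its software, background step and scaling were not given in the sources used here. Control probe sets, 66 of 12488, were left out, the arrays were quantile normalized because their medians differed by 0.943 on the log2 scale, values below the 25th percentile (104.8) were set to it, and 10310 probe sets above it on at least 5 of 20 arrays were tested. All groups entered 1 limma fit (limma 3.58.1, R 4.3.3; moderated statistics, two-sided, Benjamini-Hochberg over all probe sets, threshold 0.05), which was tested on simulated data. Arrays give no counts, so their number limits the precision.

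The members and the gene and marker lists were chosen with earlier results of these data known. The rule for names took complex IV isoforms and Sdha to Sdhd whatever their values, and members past the threshold, with the 5 largest rises and 5 largest falls in full; genes of the other lists, Cox5b, Atp5k, Ndufb9 and Uqcrh were singled out after their values were seen. The written plan named complex II as Sdha to Sdhd, and Sdhaf1 and Sdhaf2 were added because their symbols start with Sdha. Of the probe sets 10 with several symbols, a member among them, were left out. Exact permutation tests of quality ran over all 252 splits, adjusted over 4 tests. Promoter words were searched with Python 3.11.15 in RefSeq sequences of GRCm38.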

Additional observations from a re-analysis of the deposited data

Results flagged for a closer look

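A screen of 196 group and member combinations of 5 arrays did not cover all 91 tested members in each group. Of these 196, 13 held an array that stood apart from the other 4 by Dixon's criterion, which chance alone gives about 1 time in 20. Muscle SP 1, the array of highest GAPDH 3′ to 5′ ratio, did so for 3 of the probe sets screened. It read 7.08 for Cox6b2 (the other 4 between 8.40 and 8.56), 10.46 for Cox8b (8.48 to 8.84) and 12.33 for Cox8c (10.98 to 11.31). Not among the 13, muscle SP 1 also read 1340 signal units for Ndufa1 (360.4 to 515.7 on the other 4). A dimmer Cox6b2 probe set read 293.5 there (40.11 to 74.52, all below the floor of 104.8). Marrow SP 5, whose ratio of 4.23 was the next highest, read 7.02 for Cox6a2 (8.51 to 8.97) and 9.93 for a probe set of Atp5d (10.92 to 11.24). Marrow SP 1 read 8.77 for Sdha (9.65 to 9.90) and marrow SP 2 read 12.62 for Ndufa5 (12.03 to 12.17). Muscle MP 2 stood apart for Atp5d with 10.39 (9.61 to 9.73), for Sdhaf2 with 8.19 (8.86 to 9.11) and for Ndufv3 with 8.75 (7.93 to 8.13). The remaining values were 10.92 for Atp5d on muscle SP 3 (10.14 to 10.36), 14.0 for Ndufb5 on muscle MP 1 (14.39 to 14.54) and 8.27 for Atp5g1 on muscle MP 3 (7.15 to 7.45).

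For 10 members the change from MP to SP differed between muscle and marrow by the limma test of that difference. It was higher in muscle for Cox6a2 by 1.89 (adjusted p = 0.00768), Ndufc2 by 1.07 (adjusted p = 0.0149) and Atp5l by 0.83 (adjusted p = 0.0473). The difference was -1.73 for Sdhaf1 (adjusted p = 0.00179), -1.09 for Ndufa5 (adjusted p = 0.00526), -1.12 for Ndufaf4 (adjusted p = 0.0292) and -0.96 for Ndufv1 (adjusted p = 0.0324). It was -0.76 for Atp5g2 (adjusted p = 0.0347), -0.77 for Ndufb5 (adjusted p = 0.0466) and -1.01 for Ndufs3 (adjusted p = 0.0496). Without any 1 of 8 to 15 arrays the calls of Ndufaf4, Ndufv1, Atp5g2, Atp5l, Ndufb5 and Ndufs3 were lost, with adjusted p up to 0.0999, while those of Sdhaf1, Cox6a2, Ndufa5 and Ndufc2 held without each of the 20 arrays.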

How the results depend on the processing

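Of 75 member and comparison pairs that passed the test, 29 passed in every alternative; over 2312 refits 2023 kept the call, 284 lost it and 5 changed sign. With median scaling the sign changed for marrow SP against MP of Cox6a1 (-0.07), Ndufa2 (-0.12) and Ndufb5 (0), and for the tissue difference of the Ndufb5 change (0.01); with no further normalization it changed for Ndufc2 in marrow (0.02). Counts that moved by over 1.5 times are given by comparison. In muscle SP against MP, 1 member was higher with no filter, 1 with the GAPDH covariate and 6 without the 3 arrays of highest GAPDH ratio, against 0, and 1 was lower with the covariate, against 3; this was Ndufb3, and 0 of the 3 were kept. In marrow 3 were higher and 18 lower with median scaling and 2 lower with no further normalization, against 13 and 7. Between SP cells the 3 lower became 7 with no further normalization, 5 with no filter, 5 with the GAPDH covariate and 8 without the 3 arrays. Between MP cells 10 were higher with median scaling, against 18, and 5 lower with no further normalization, against 8. For the difference between tissues in the change, higher calls were 5 with median scaling and 1 with no further normalization, against 3, and lower calls 2 with median scaling and 4 with the floor at the 10th percentile, against 7.

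Leaving out 1 array at a time gave 0 to 3 higher and 1 to 3 lower in muscle, 10 to 16 and 5 to 9 in marrow, 10 to 15 and 3 to 8 between SP cells, 16 to 20 and 4 to 9 between MP cells, and 2 to 4 and 3 to 7 for the difference in change. Without muscle SP 1 the muscle counts were 3 and 1 and the lower count between SP cells was 8; the latter was 5 without muscle SP 5 and 6 without marrow SP 5. The muscle lower count was also 1 without muscle MP 3 or muscle MP 4, and 1 was higher without muscle MP 2 or marrow SP 5. The lower count between MP cells was 4 without muscle MP 4 or marrow MP 1, and 5 without muscle MP 5, marrow MP 2 or marrow MP 5. The labels do not say that equal replicate numbers share an origin. Of 30 correlations of same-numbered deviations 14 exceeded 0.1 (range -0.14 to 0.30), and 21 of 60 were highest with their own number, where chance gives 12. All correlations between arrays numbered 1 lay between 0.19 and 0.30, and those of numbers 2 to 5 between -0.14 and 0.28. The main fit left the replicate number out. With the replicate number as a block, 6 were lower between SP cells and 5 had a higher change in muscle, and the other counts stayed within 1.5 times. Under the block the Ndufv1 difference in muscle had adjusted p = 0.0541 and the Sdhd difference between MP cells 0.0618. A fit of only the groups compared was not run for the difference between tissues, which uses all 20 arrays. The causes of these shifts were not tested. Dim probe sets at the floor, such as Cox7a1, Cox8a and Cox5a, allow no statement of a difference.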
